A study of Homo sapiens with 6 samples.

Results

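Translation initiation factors are the proteins that bring the initiator tRNA and the small ribosomal subunit to an mRNA, find the start codon and join the large subunit. Their genes were taken by symbol: every name that begins with EIF1, EIF2, EIF3, EIF4, EIF5 or EIF6, leaving out the Argonaute genes once named EIF2C and the eIF2 kinases named EIF2AK, which gave 52 of the 23228 gene symbols counted. The libraries came from U2OS, an established human osteosarcoma cell line, 48 hours after transfection with RNAiMAX of siRNAs against ALKBH5 (3 libraries, the knockdown) or of a scrambled siRNA (3 libraries). ALKBH5 is an enzyme that removes the methyl group of m6A, a common modified base of mRNA. Both groups were transfected, no untransfected cells and no rescue are among the samples, and polyadenylated RNA was sequenced as single reads. The labels do not say whether the 3 libraries of a group are separate cultures, so the p-values speak of library-to-library spread alone, and that spread may be technical.

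ALKBH5 itself had 19.4, 16.2 and 15.7 CPM (read counts relative to the library's reads in genes, scaled between libraries by the TMM method) in the knockdown libraries, against 138, 148 and 143 CPM in the scrambled libraries. The groups did not overlap, and the knockdown level was 8.35-fold lower (adjusted p = 1.6e-09 by edgeR's quasi-likelihood test; log2 fold change -3.06, SE 0.10). Reads in genes numbered 19748583 to 19919797 per knockdown library and 18817181 to 23410007 per scrambled library. Reads outside any gene took 17.9% ± 0.66 of the reads placed once in the knockdown libraries and 15.3% ± 0.23 in the scrambled libraries (SD, n = 3 each). The part of this difference in the results was not tested. Among markers of the labelled cell type, all 8 mesenchymal and osteoblast genes had reads, with a summed level of 7110 to 7913 CPM in the knockdown and 6531 to 6982 CPM in the scrambled libraries. Of the 8, 4 were called higher, FN1 among them (log2 fold change 1.07), and 3 lower, VIM (-0.39) and SPARC (-0.51) among them. COL1A2 averaged only 1.12 CPM in the knockdown and 4.44 CPM in the scrambled libraries. Epithelial markers summed to 626 to 649 CPM in the knockdown and 547 to 641 CPM in the scrambled libraries, with reads for 8 of 8. KRT8 (261 CPM in the knockdown, 356 in the scrambled libraries on average) and KRT18 (294 and 180) held most of this sum. Of the 7 tested, 3 were called higher and 3 lower, KRT14 falling to 0.362 from 8.34 CPM and CLDN4 rising to 71.8 from 34.2 CPM. Leukocyte markers summed to 95.7 to 198 CPM in the knockdown and 26.2 to 28.6 CPM in the scrambled libraries, with reads for 6 of 8; CD3E was at 0, and LCP1, an actin-bundling protein also made by many tumour lines, held most of the sum. Endothelial markers summed to 10.2 to 10.7 CPM in the knockdown and 13.4 to 15.2 CPM in the scrambled libraries, with reads for 7 of 7. The part of these marker levels in the results was not tested, and in bulk RNA fewer cells of a type and less RNA per cell cannot be told apart.

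In initiation, eIF2 carries the initiator tRNA to the small subunit as a complex with GTP, and eIF2B reloads it; phosphorylation of its alpha subunit blocks that reloading and slows protein synthesis. The many-subunit factor eIF3 holds the small subunit and contacts the mRNA, and it is one of the proteins reported to bind m6A. The cap is bound by eIF4E, which joins the scaffold eIF4G and the helicase eIF4A in the complex eIF4F, while the 4E-binding proteins compete with eIF4G for eIF4E. The small factors eIF1 and eIF1A keep scanning accurate, eIF5 triggers GTP hydrolysis on eIF2, eIF5B joins the subunits, and eIF5A, which carries the modified amino acid hypusine, helps the ribosome form peptide bonds and end translation.

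Most initiation factor genes moved little, and a few moved a lot. Of the 52 genes, 46 had enough reads to be tested, each with at least 45 reads in every library. After ALKBH5 knockdown 11 of the 46 were higher, 16 were lower and 19 did not pass an adjusted p of 0.05, that is, 58.7% called. Over all 14504 tested genes 61.6% were called, 30.8% higher and 30.8% lower, so the share of initiation factor genes called lay near the background. Scaling by library totals alone, which lowers the median log2 fold change of all genes to -0.06 from 0.01, gave 10 higher and 23 lower, or 21.7% and 50.0%, beside 27.7% and 34.4% of all tested genes. The median log2 fold change of the 46 genes was -0.11, beside 0.01 for all genes, and the median size of change was 0.30, beside 0.46 for all genes and 0.36 for the 3626 most abundant tested genes. In 33 of the 46 the change was smaller than the median change of all genes, a size that splits all tested genes evenly. Among the 3626 most abundant tested genes, 2173 lay below it, and so did 25 of the 32 initiation factor genes among them.

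A change beyond 1.5-fold, tested with edgeR's glmTreat, was called for 4 of the 46 genes, or 8.70%, beside 24.8% of all tested genes. Higher beyond that size were EIF5A2, a tissue-restricted copy of eIF5A, EIF4EBP2, an inhibitor of eIF4E, and EIF4E2, an alternative cap binder. Lower beyond it was EIF4A3, a relative of the eIF4A helicases that works in the exon junction complex. The CPM of the groups did not overlap for 29 of the 46 genes, 11 higher and 18 lower, beside 67.4% of all tested genes. Initiation factor genes are mostly abundant, and 32 of them were among the 3626 most abundant tested genes; of these 32, 8 were higher and 11 lower, or 59.4%, beside 67.6% of those 3626 genes.

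**Figure D1:**
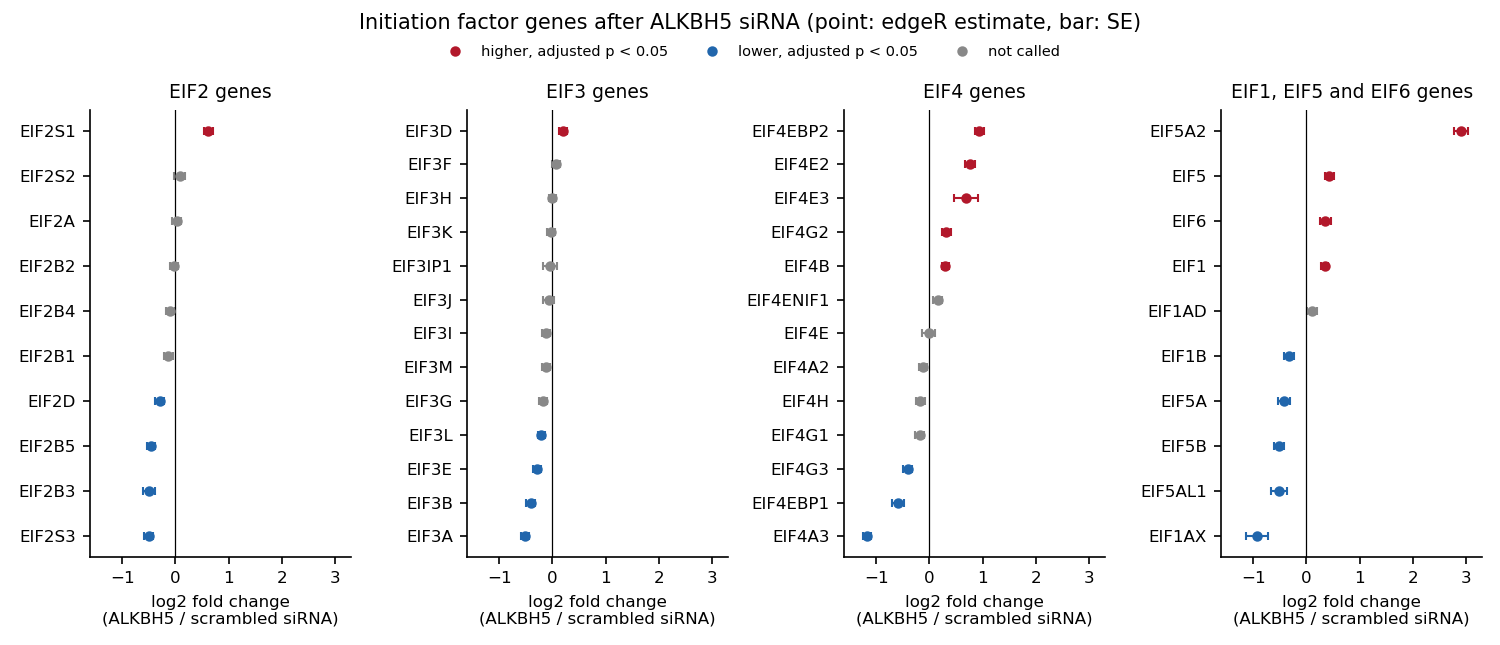
Log2 fold change (ALKBH5 siRNA over scrambled siRNA, horizontal axis) of the 46 tested initiation factor genes, in panels for EIF2, EIF3, EIF4 and the EIF1, EIF5 and EIF6 genes; points are edgeR estimates, bars are SE, red and blue mark genes called higher and lower. EIF5A2 at 2.90 stands apart at the high end and EIF4A3 at -1.17 at the low end, while the EIF3 genes lie between -0.51 and 0.19.

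The 3 large groups differed in how widely their genes were spread. EIF2 genes ran from -0.50 to 0.62 on the log2 scale with a median of -0.11, and 1 was higher and 4 lower of 10. EIF3 genes had the narrowest range of the 3, from -0.51 to 0.19 with a median of -0.12, and 1 was higher and 4 lower of 13. The median size of change was 0.12 in the EIF3 group, beside 0.21 in the EIF2 group and 0.32 in the EIF4 group. In the EIF3 group 12 of 13 genes changed by less than the median of all genes, beside 7 of 10 EIF2 and 8 of 13 EIF4 genes. Of the 3626 most abundant tested genes, 2173 did so. EIF4 genes ran from -1.17 to 0.94 with a median of -0.01, and 5 were higher and 3 lower of 13. The shares called were 50% for EIF2, 38.5% for EIF3 and 61.5% for EIF4. Over all tested genes 61.6% were called, 30.8% in each direction. With library totals as the scaling, the counts were 1 higher and 5 lower for EIF2, 0 higher and 7 lower for EIF3, and 5 higher and 6 lower for EIF4. With that scaling 27.7% of all tested genes were higher and 34.4% lower. No test of these groups against each other was made.

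Summed over the group, the EIF3 genes had 3351, 3520 and 3416 CPM in the knockdown libraries, against 3815, 3743 and 3997 CPM in the scrambled libraries. The groups did not overlap, and the knockdown mean was 0.890 of the scrambled mean. The EIF3 genes called lower held most of this difference. On average EIF3A had 331 CPM in the knockdown and 472 in the scrambled libraries, EIF3B 373 and 495, EIF3L 568 and 656, and EIF3E 282 and 344. EIF3D, the 1 called higher, had 405.5 and 355 CPM. The summed EIF2 genes had 1128 ± 84.9 CPM in the knockdown and 1061 ± 32.8 CPM in the scrambled libraries (SD, n = 3 each), with overlapping libraries. EIF2S1 alone averaged 432 ± 54.1 CPM in the knockdown and 281 ± 4.87 CPM in the scrambled libraries, a wider gap than that of the EIF2 sums. The summed EIF4 genes had 3726 ± 269 CPM in the knockdown and 3456 ± 88.1 CPM in the scrambled libraries. This order rested on 1 gene: without EIF4G2 the sums were 1748 ± 42.4 CPM in the knockdown and 1869 ± 65.1 CPM in the scrambled libraries. The knockdown and scrambled libraries did not overlap in the EIF4 sums, with or without EIF4G2. EIF3C and EIF4A1, both core factors, are listed at 0 in every library and add nothing to these sums.

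**Figure D2:**
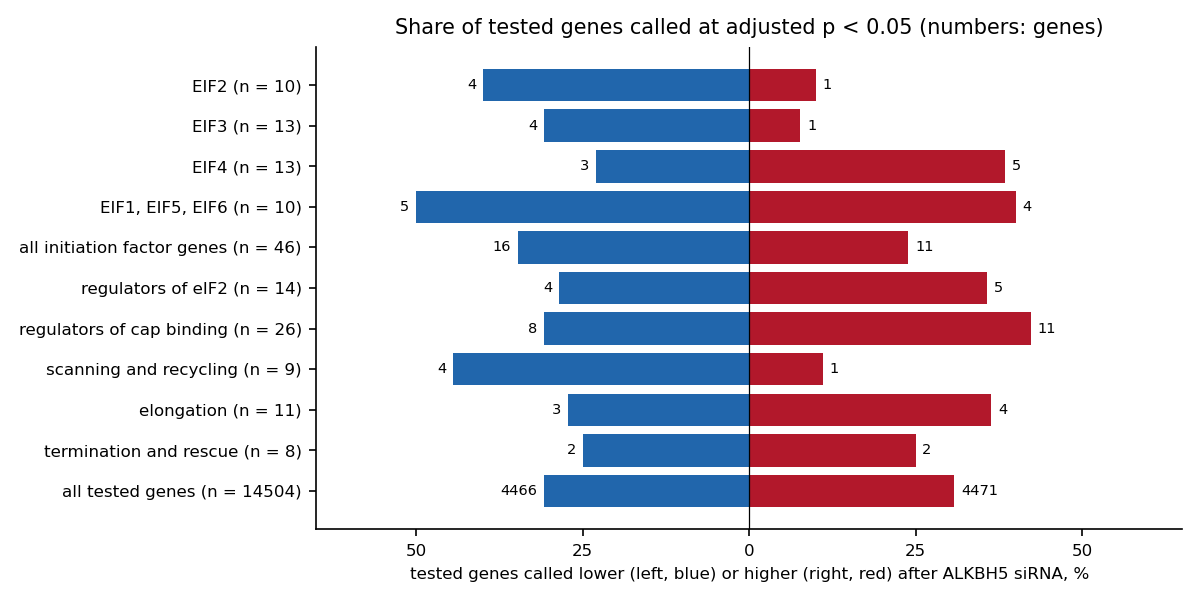
Share of tested genes called lower (left, blue) or higher (right, red) after ALKBH5 siRNA, in percent, for the initiation factor groups, for other translation gene lists and for all tested genes; numbers at the bars are genes. The EIF4 group has 5 higher and 3 lower genes, the EIF2 and EIF3 groups 1 higher and 4 lower each, and all tested genes are split evenly at 30.8% each way.

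Within the eIF2 group the alpha and gamma subunit genes moved in opposite directions and the beta subunit gene was not called. EIF2S1, which encodes the alpha subunit that the stress kinases phosphorylate, had 389, 493 and 415 CPM in the knockdown libraries, against 277, 281 and 287 CPM in the scrambled libraries. It was higher in all knockdown libraries (log2 fold change 0.62, SE 0.09, adjusted p = 8.3e-05). EIF2S3, the gamma subunit gene, which makes the GTP- and tRNA-binding part, had 63.5, 66.8 and 64.2 CPM in the knockdown libraries, against 84.7, 90.6 and 100.4 CPM in the scrambled libraries. It was lower in all knockdown libraries (-0.50, SE 0.09, adjusted p = 0.00032). EIF2S2, the beta subunit gene, averaged 130.5 ± 16.2 CPM in the knockdown and 123 ± 10.7 CPM in the scrambled libraries (log2 fold change 0.08, 95% interval -0.14 to 0.30).

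The exchange factor eIF2B has 5 subunit genes, of which 2 fell and none was called higher. That is 40% called, beside 61.6% of all tested genes called and 30.8% called lower. EIF2B5, the catalytic epsilon subunit gene, had 67.0, 71.2 and 72.8 CPM in the knockdown libraries, against 97.1, 94.4 and 97.7 CPM in the scrambled libraries (log2 fold change -0.45, SE 0.08, adjusted p = 0.00029). EIF2B3, the gamma subunit gene, had 30.0, 39.3 and 35.9 CPM in the knockdown libraries, against 45.8, 49.8 and 53.4 CPM in the scrambled libraries (-0.50, SE 0.11, adjusted p = 0.0022). For both genes every knockdown library lay below every scrambled one. EIF2B1, EIF2B4 and EIF2B2 had log2 fold changes of -0.13, -0.09 and -0.02, and the 95% interval of each included 0. EIF2D, which can deliver tRNA to the ribosome without eIF2, fell to 60.0 ± 3.14 CPM in the knockdown, against 73.7 ± 1.90 CPM in the scrambled libraries (-0.30, adjusted p = 0.0077). EIF2A, another such factor, was not called (0.02, 95% interval -0.15 to 0.19).

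Of the subunit genes of eIF3, those for the scaffold subunits a and b fell most. EIF3A, the largest subunit and an organiser of the complex, had 318, 358 and 319 CPM in the knockdown libraries, against 469, 487 and 462 CPM in the scrambled libraries (log2 fold change -0.51, SE 0.08, adjusted p = 9.1e-05). EIF3B, the partner that holds the g and i subunits, had 352, 396 and 370 CPM in the knockdown libraries, against 449, 501 and 536 CPM in the scrambled libraries (-0.41, SE 0.08, adjusted p = 0.0012). Both genes were lower in every knockdown library than in any scrambled library. EIF3E had 277, 299 and 270.4 CPM in the knockdown libraries, against 350.5, 321 and 359 CPM in the scrambled libraries (-0.28, SE 0.08, adjusted p = 0.0066), again without overlap. EIF3L fell by 0.21 on the log2 scale (adjusted p = 0.024), a call that was lost without knockdown library 2, scrambled library 1 or scrambled library 3, with an adjusted p of up to 0.090.

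EIF3D, whose protein can bind the cap of some mRNAs, was the only one of the 13 tested EIF3 genes called higher. It had 384, 421 and 411 CPM in the knockdown libraries, against 348, 344 and 372 CPM in the scrambled libraries (log2 fold change 0.19, SE 0.07, adjusted p = 0.037). The groups did not overlap, but the call was lost without knockdown library 2 or 3, without scrambled library 1 or 2, and with library totals as the scaling, with an adjusted p of up to 0.13. In the octamer of a, c, e, f, h, k, l and m subunits, 3 of the 7 tested genes fell and none was called higher, or 42.9% called. Among the genes for b, d, g, i and j, 1 was higher and 1 lower of 5, or 40% called. Over all tested genes 61.6% were called, and 30.8% were called lower. EIF3H was not called, at 436 ± 18.4 CPM in the knockdown and 436 ± 15.9 CPM in the scrambled libraries (log2 fold change 0.00, 95% interval -0.16 to 0.16). EIF3F, EIF3G, EIF3I, EIF3J, EIF3K and EIF3M were not called, with log2 fold changes of -0.17 to 0.06, and neither was EIF3IP1, a processed copy of EIF3I (-0.04).

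In the cap-binding group the gene for the classical cap binder was not called, while several of its relatives and inhibitors were. EIF4E had 16.6 ± 1.44 CPM in the knockdown and 16.8 ± 1.71 CPM in the scrambled libraries (log2 fold change -0.01, 95% interval -0.28 to 0.25). EIF4E2, which encodes 4EHP, a cap binder that does not join eIF4G and is known for repressing mRNAs, had 84.2, 97.5 and 87.6 CPM in the knockdown libraries, against 55.4, 48.9 and 54.2 CPM in the scrambled libraries. It was 1.70-fold higher (0.76, SE 0.09, adjusted p = 1.6e-05) with no overlap, and its change passed the 1.5-fold test with an adjusted p of 0.040; that call was lost without knockdown library 2, without scrambled library 2 or 3 and with library totals. EIF4E3, a further cap binder, had 26.7, 24.4 and 18.1 CPM in the knockdown libraries, against 19.3, 13.0 and 10.5 CPM in the scrambled libraries. Its groups overlapped, and its call (0.69, SE 0.22, adjusted p = 0.022) was lost without knockdown library 1 or 2 or scrambled library 2 or 3, with an adjusted p of up to 0.078.

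The genes for the 2 tested 4E-binding proteins, which hold eIF4E away from eIF4G until mTORC1 phosphorylates them, moved in opposite directions. EIF4EBP2 had 142, 134 and 135 CPM in the knockdown libraries, against 77.9, 71.3 and 65.6 CPM in the scrambled libraries. It was 1.91-fold higher in the knockdown (log2 fold change 0.94, SE 0.08, adjusted p = 1.6e-06, and 0.00093 in the 1.5-fold test). EIF4EBP1 had 93.2, 98.4 and 106 CPM in the knockdown libraries, against 120, 164 and 165 CPM in the scrambled libraries (-0.59, SE 0.12, adjusted p = 0.0011). Scrambled library 1 lay nearest to the knockdown libraries, still without overlap. EIF4ENIF1, the transporter 4E-T that takes eIF4E into the nucleus and to sites of mRNA decay, was higher in every knockdown library but was not called (0.15, adjusted p = 0.13).

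Among helicases and scaffolds, EIF4A3 showed the largest decrease of any tested initiation factor gene. EIF4A3, which marks exon junctions and takes part in nonsense-mediated decay, had 65.5, 68.0 and 60.9 CPM in the knockdown libraries, against 139, 144 and 156 CPM in the scrambled libraries. It was lower by a factor of 2.26 (log2 fold change -1.17, SE 0.08, adjusted p = 2.3e-07, and 1.6e-05 in the 1.5-fold test), and the libraries of each group lay close together. EIF4A2, a helicase of eIF4F itself, was not called (-0.12, 95% interval -0.28 to 0.04). Of the helicase cofactors, EIF4B was higher, at 211 ± 11.2 CPM in the knockdown and 171 ± 3.31 CPM in the scrambled libraries (0.30, adjusted p = 0.0035), and EIF4H was not called (-0.18, adjusted p = 0.097).

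The scaffold genes were split. EIF4G3 had 88.5, 87.7 and 94.0 CPM in the knockdown libraries, against 127, 122 and 111 CPM in the scrambled libraries, and fell by 0.41 on the log2 scale (SE 0.08, adjusted p = 0.00083) without overlap. EIF4G2, which encodes DAP5, a scaffold that lacks the eIF4E-binding part, was higher at 1978.5 ± 228 CPM in the knockdown and 1586 ± 78.3 CPM in the scrambled libraries (0.32, adjusted p = 0.0076). EIF4G1, the main scaffold gene, averaged 492 ± 24.1 CPM in the knockdown and 559 ± 53.9 CPM in the scrambled libraries and was not called (-0.19, adjusted p = 0.075); without scrambled library 1 it was called lower (adjusted p = 0.025).

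**Figure D3:**
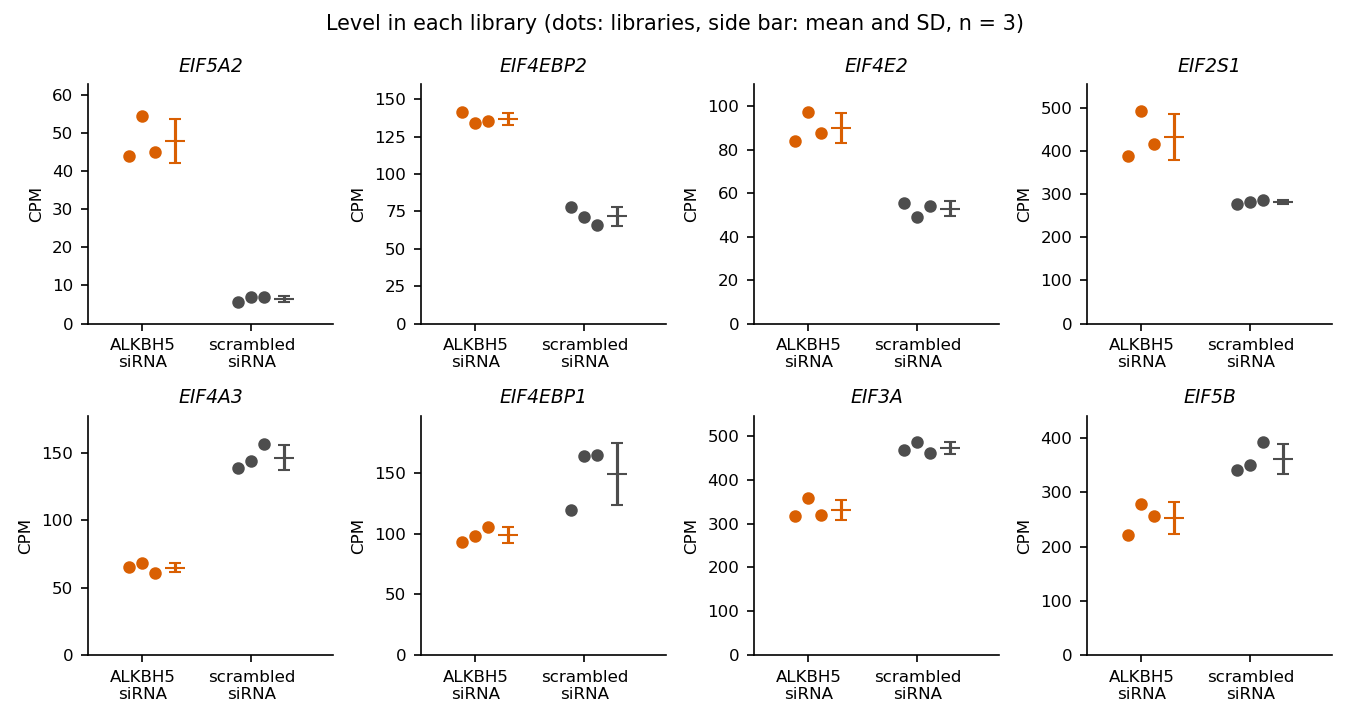
Level in CPM (vertical axis from 0) of 8 initiation factor genes in the ALKBH5 siRNA libraries (orange) and the scrambled siRNA libraries (grey); dots are libraries and the bar beside them is the mean and SD (n = 3). In all 8 panels the groups do not overlap. EIF5A2, at 44.1 to 54.6 CPM in the knockdown against 5.62 to 6.87 CPM in the scrambled libraries, has the largest fold change of the 8, though not the widest gap in CPM.

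EIF5A2 was the initiation factor gene that changed most. Its protein is a close relative of eIF5A that is usually made in few tissues and is known as an amplified gene in some tumours. The gene lies on the minus strand at chr3:170888415-170908693 of GRCh38 (GENCODE). EIF5A2 had 44.1, 54.6 and 45.1 CPM in the knockdown libraries, against 5.62, 6.87 and 6.85 CPM in the scrambled libraries, from 861, 1037 and 880 reads in the knockdown and 135, 143 and 131 reads in the scrambled libraries. It was 7.45-fold higher in the knockdown (log2 fold change 2.90, SE 0.13, adjusted p = 9.9e-09, and 3.3e-08 in the 1.5-fold test), and leaving out any 1 library kept the log2 fold change between 2.80 and 2.96.

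The EIF5A2 promoter is shown because no other initiation factor gene changed as much. The 150 bases that end at base -101 relative to its start in RefSeq (chr3:170908738-170908887, minus strand, GRCh38.p14) hold the E-box CACGTG, which reads the same on both strands, at -187 and -162, set in capitals:
EIF5A2: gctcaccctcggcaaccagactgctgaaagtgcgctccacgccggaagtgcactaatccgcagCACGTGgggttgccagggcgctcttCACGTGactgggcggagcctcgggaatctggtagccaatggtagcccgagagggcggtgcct
The same stretch holds the ETS-type motif CCGGAAG. In windows from 250 bases before to 50 bases after a RefSeq start, the E-box was present in 10 of the 38 tested initiation factor genes with a window (26.3%), beside 12.5% of tested genes and 8.77% of all genes with one. Those 10 genes included both EIF5A2 and EIF4A3, at opposite ends of the range, and 2 of them were higher and 3 lower, beside 26.6% higher and 34.1% lower of all tested genes with the E-box. CCGGAAG or its reverse complement CTTCCGG was present in 11 of 38 (28.9%), beside 20.9% of tested genes and 12.2% of all genes, and 4 of these were higher and 1 lower, beside 26.8% higher and 31.2% lower of all tested genes with the motif. No copies of the motifs overlapped each other in the initiation factor windows, and a match is a description of the sequence only.

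EIF5A, the main gene for the hypusine-carrying factor, moved the other way. It averaged 194 ± 18.1 CPM in the knockdown and 261 ± 42.3 CPM in the scrambled libraries (log2 fold change -0.43, adjusted p = 0.0069). EIF5AL1, a processed copy of EIF5A with a nearly identical sequence, had 7.83, 7.94 and 8.45 CPM in the knockdown libraries, against 10.5, 10.1 and 14.0 CPM in the scrambled libraries (-0.51, adjusted p = 0.012). Reads that such copies share cannot be assigned with certainty, so the value of EIF5AL1 is uncertain, and its call was lost without scrambled library 3 (adjusted p = 0.063).

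Of the factors that act at start codon choice and subunit joining, some were higher and some lower. EIF5, which triggers GTP hydrolysis on eIF2, had 277, 331 and 283 CPM in the knockdown libraries, against 219, 228 and 215 CPM in the scrambled libraries (log2 fold change 0.43, SE 0.08, adjusted p = 0.00076). EIF5B, the GTPase that joins the subunits, had 222, 279 and 257 CPM in the knockdown libraries, against 341, 350 and 392 CPM in the scrambled libraries (-0.51, SE 0.09, adjusted p = 0.00050). The groups of both genes did not overlap. EIF6, which keeps the large subunit from joining too early, had 190, 227 and 222 CPM in the knockdown libraries, against 157, 155 and 188 CPM in the scrambled libraries (0.36, SE 0.10, adjusted p = 0.0070), with scrambled library 3 close below knockdown library 1.

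Start codon scanning factors were split as well. EIF1 was higher, at 592 ± 25.7 CPM in the knockdown and 466 ± 5.62 CPM in the scrambled libraries (log2 fold change 0.34, adjusted p = 0.0010). Its close copy EIF1B was lower, at 34.6 ± 1.38 CPM in the knockdown and 43.3 ± 1.85 CPM in the scrambled libraries (-0.32, adjusted p = 0.0081). EIF1AX, the eIF1A gene, had 3.89, 3.31 and 2.30 CPM in the knockdown libraries, against 5.91, 5.86 and 6.38 CPM in the scrambled libraries, from 45 to 76 reads in the knockdown and 122 to 142 reads in the scrambled libraries. It was lower without overlap (-0.93, SE 0.21, adjusted p = 0.0020), with few reads for a factor that every cell uses. EIF1AD, named for its eIF1A domain, was not called (0.10, 95% interval -0.11 to 0.32).

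The balance between related factors was compared as a ratio within each library, which does not depend on scaling between libraries. Of 8 pairs listed for this purpose, the 2 that need EIF4A1 could not be computed. In 5 of the other 6 the groups did not overlap. Among single tested genes 67.4% did not overlap, and no such share was computed for gene pairs. The genes were chosen with earlier results of these data known. With 3 libraries against 3, an exact two-sided permutation test cannot give a p below 0.1. These 5 pairs had an exact permutation p = 0.1, or 0.12 adjusted over the 6 pairs. EIF5A had 3.93, 3.70 and 4.58 times the reads of EIF5A2 in the knockdown libraries, against 40.9, 35.4 and 45.1 times in the scrambled libraries. EIF4EBP1 had 0.659, 0.734 and 0.783 times the reads of EIF4EBP2 in the knockdown libraries, against 1.54, 2.30 and 2.51 times in the scrambled libraries, so the gene with more reads changed between the groups. These ratios are of reads, not of molecules, since the genes differ in length.

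For the other pairs the differences were smaller. The log2 ratio of EIF4E to EIF4E2 averaged -2.44 ± 0.02 in the knockdown and -1.66 ± 0.23 in the scrambled libraries (SD, n = 3 each). EIF1 over EIF1B averaged 4.10 ± 0.06 in the knockdown and 3.43 ± 0.06 in the scrambled libraries. EIF4G1 over EIF4G2 averaged -2.00 ± 0.12 in the knockdown and -1.51 ± 0.17 in the scrambled libraries. For EIF4G1 over EIF4G3 the libraries overlapped, at 2.45 ± 0.08 in the knockdown and 2.22 ± 0.24 in the scrambled libraries (exact permutation p = 0.3).

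**Figure D4:**
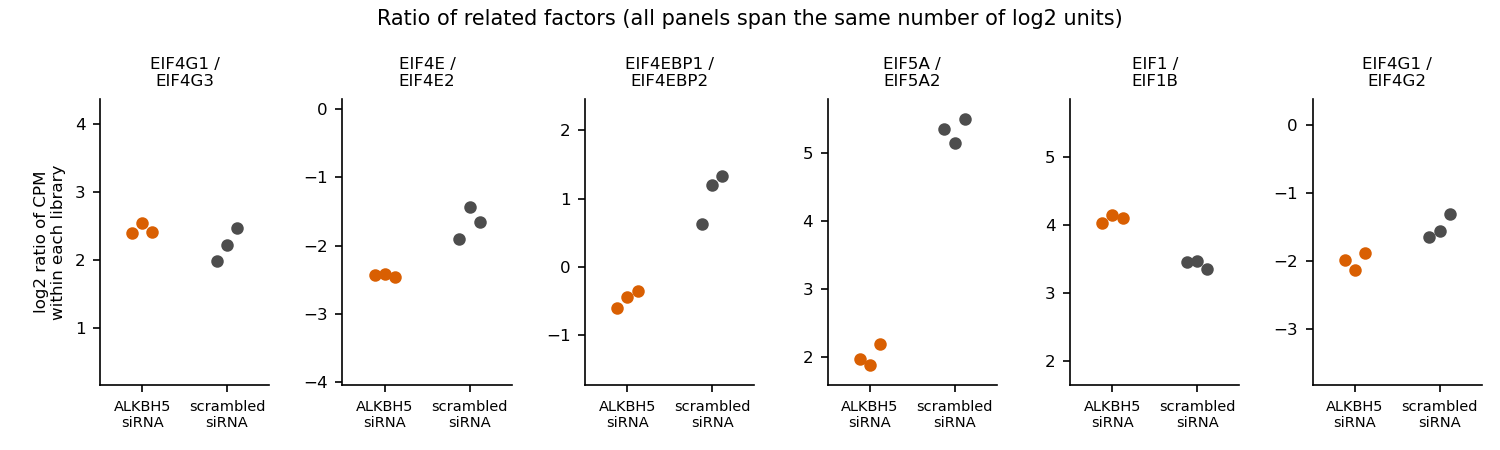
Log2 ratio of the CPM of related initiation factor genes within each library (vertical axis, with the same span in every panel) in the ALKBH5 siRNA libraries (orange) and the scrambled siRNA libraries (grey); each dot is a library. EIF5A over EIF5A2 shows the widest gap, 2.02 in the knockdown against 5.33 in the scrambled libraries on average, and EIF4G1 over EIF4G3 is the pair whose groups overlap.

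A start made of pyrimidines is a feature that several initiation factor genes share. Many mRNAs of the translation machinery begin with a C followed by a run of C and T, the TOP motif, through which mTORC1 and LARP1 control their translation. Such a start, here a C at the annotated RefSeq start followed by at least 4 bases that are C or T, was present in 9 of the 38 tested initiation factor genes with a window (23.7%), beside 7.43% of tested genes and 5.14% of all 27305 genes with one. The 9 starts are shown because this feature was more frequent among initiation factor genes than among tested genes, with no test made; each line gives 10 bases before and 20 bases from the start, 5′ to 3′ (GRCh38.p14), with the pyrimidine run in capitals:
EIF2A (chr3:150546777-150546806, plus strand): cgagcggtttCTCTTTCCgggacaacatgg
EIF2D (chr1:206612446-206612475, minus strand): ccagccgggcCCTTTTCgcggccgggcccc
EIF2S3 (chrX:24054946-24054975, plus strand): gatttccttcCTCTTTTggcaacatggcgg
EIF3D (chr22:36529147-36529176, minus strand): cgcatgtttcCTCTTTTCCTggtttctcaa
EIF3F (chr11:7987327-7987356, plus strand): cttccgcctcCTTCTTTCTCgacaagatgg
EIF3K (chr19:38619178-38619207, plus strand): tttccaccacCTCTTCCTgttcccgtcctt
EIF3M (chr11:32583821-32583850, plus strand): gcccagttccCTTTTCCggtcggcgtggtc
EIF4A2 (chr3:186783567-186783596, plus strand): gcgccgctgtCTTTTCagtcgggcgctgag
EIF4B (chr12:53006446-53006475, plus strand): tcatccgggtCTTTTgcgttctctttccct
The other 29 of the 38 genes have no such run at their start.

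Of the 9 genes with a pyrimidine start, 4 belong to the EIF3 group and 3 to the EIF2 group. EIF3D and EIF4B were called higher and EIF2S3 and EIF2D lower, and the log2 fold changes of the 9 ran from -0.50 to 0.30 with a median of -0.03. Over all tested genes with such a start the median was also -0.03, with 31.9% higher and 34.0% lower. The 29 initiation factor genes with a window but without such a start had 9 higher and 10 lower and a median of -0.09. The tested genes EIF2S2, EIF3A, EIF3E, EIF3G, EIF3H, EIF3IP1, EIF3L and EIF4EBP1 had no window and are in neither set. Of these, EIF3A, EIF3E, EIF3L and EIF4EBP1 were called lower and the rest were not called.

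Of 14 regulators and effectors of eIF2, 5 were higher and 4 lower, with a median log2 fold change of 0.16. The share called, 64.3%, lay near the 61.6% of all tested genes. ATF4, the transcription factor translated when eIF2 is phosphorylated, had 720 ± 49.7 CPM in the knockdown and 539 ± 32.1 CPM in the scrambled libraries (0.42, adjusted p = 0.00066). Its partner in the stress response DDIT3 was higher by 0.52 and BZW1, an eIF5 mimic, by 0.30. EIF2AK1, the haem-regulated eIF2 kinase, had 342 ± 20.4 CPM in the knockdown and 446 ± 3.63 CPM in the scrambled libraries (-0.38, adjusted p = 0.00065). PPP1CC, a catalytic subunit of the phosphatase that acts on eIF2, fell by 0.36 and PPP1R15B, which directs that phosphatase to eIF2, fell by 0.40. Their relatives did not fall: PPP1R15A was called higher (0.42, adjusted p = 0.029), and PPP1CA (0.18) and PPP1CB (0.13) were not called.

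Of 26 regulators of cap binding, 11 were higher and 8 lower, or 73.1% called beside 61.6% of all tested genes. Their median log2 fold change was 0.01, and 5 changed beyond 1.5-fold, or 19.2% beside 24.8%. RHEB, the GTPase that switches on mTORC1, had 25.6 ± 2.18 CPM in the knockdown and 9.62 ± 0.692 CPM in the scrambled libraries (log2 fold change 1.41, adjusted p = 9.1e-07). RPS6KB1, the S6 kinase gene, had 131 ± 12.3 CPM in the knockdown and 73.9 ± 2.40 CPM in the scrambled libraries (0.82, adjusted p = 5.7e-06), and RPS6KB2, its relative, was higher by 0.79. PAIP1, which links the poly(A)-binding protein to eIF4A, had 21.6 ± 2.00 CPM in the knockdown and 53.5 ± 2.84 CPM in the scrambled libraries (-1.31, adjusted p = 5.2e-07). DEPTOR, an mTOR inhibitor, had 1.48 ± 0.774 CPM in the knockdown and 8.21 ± 2.26 CPM in the scrambled libraries (-2.47, adjusted p = 0.00010), and AKT1, a kinase upstream of mTORC1, fell by 0.75.

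Among genes for scanning, recycling, elongation and termination some were higher and some lower, and the shares called in the 3 lists, 50.0% to 63.6%, lay near or below the 61.6% of all tested genes. Of 9 genes for scanning, reinitiation and recycling, 1 was higher and 4 lower (median log2 fold change -0.09); ABCE1, which splits ribosomes after termination, had 134 ± 16.3 CPM in the knockdown and 64.8 ± 8.63 CPM in the scrambled libraries (1.05, adjusted p = 1.1e-05), while ABCF2 and ABCF1, ribosome-associated ATPases, fell by 0.73 and 0.36 and the reinitiation factor DENR by 0.29. Of 11 elongation genes, 4 were higher and 3 lower (median -0.09). DHPS, the enzyme that begins hypusine synthesis on eIF5A, had 47.1 ± 1.27 CPM in the knockdown and 80.6 ± 3.07 CPM in the scrambled libraries (-0.78, adjusted p = 5.7e-06). EEF2, the translocase, had 1916 ± 133 CPM in the knockdown and 2505 ± 101 CPM in the scrambled libraries (-0.39, adjusted p = 0.00082), and the selenocysteine factor EEFSEC fell by 0.61. The elongation factor 1 genes EEF1B2, EEF1A2 and EEF1D were higher by 0.50, 0.43 and 0.21, though the EEF1A2 groups overlapped (knockdown library 2 at 396 CPM, scrambled library 3 at 403 CPM). Of 8 termination and rescue genes, 2 were higher and 2 lower (median 0.05). The release factor ETF1 (0.22) and the rescue ligase LTN1 (0.59) were higher, and the release factor GSPT2 (-0.38) and the rescue factor NEMF (-0.32) lower. The ETF1 groups overlapped (knockdown library 1 at 136 CPM, scrambled library 3 at 141 CPM), and its adjusted p of 0.048 in edgeR lay close to the threshold.

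The 6 genes not tested were at or near 0. EIF3C, EIF3CL and EIF4A1 are listed at 0 in every library, although eIF3c and eIF4A1 are core factors of dividing cells, so their levels were not measured here. EIF3C (chr16:28688558-28735730, plus strand) and EIF3CL (chr16:28379579-28403879, minus strand, GRCh38) are near-identical copies. EIF4A1 (chr17:7572706-7579005) is overlapped by a readthrough gene, SENP3-EIF4A1 (chr17:7563287-7578715), which had 2, 3 and 1 reads in the knockdown libraries and 2, 2 and 1 reads in the scrambled libraries; the part of these copies and overlaps in the listed zeros was not tested. EIF1AY also had no read, EIF4E1B had 1 read in scrambled library 1 and none elsewhere, and EIF4EBP3 had 1, 0 and 1 reads in the knockdown libraries and 2, 2 and 1 reads in the scrambled libraries. A count of 0 allows up to 3 reads, or 0.154 to 0.158 CPM in the knockdown and 0.125 to 0.157 CPM in the scrambled libraries, for counting error only.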

How the data were processed

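RNA of 6 libraries (TruSeq stranded mRNA kit, per the labels' protocols) had been counted per gene by the authors: the deposited values are raw read counts, made with CASAVA 1.8.2, TopHat2, SAMtools and HTSeq on hg19, per the submitters' processing notes. The sources used here give neither the strand setting nor the annotation, so reads from a gene and an antisense partner, or from near-identical copies, cannot be told apart with certainty. All 23233 entries of the series table and the sample files were identical. Entries that name no gene were left out. Counts placed more than once were 33.0% ± 0.18 of these and the reads placed once together in the knockdown libraries, and 33.3% ± 0.33 in the scrambled libraries. Ambiguous reads were 0.746% ± 0.0081 and 0.836% ± 0.021 of the reads placed once.

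Counts were tested in edgeR 4.0.16 (R 4.3.3): filterByExpr, TMM, robust quasi-likelihood fit on the group alone, two-sided test, Benjamini-Hochberg adjustment over 14504 genes, threshold 0.05, and glmTreat beyond 1.5-fold. The script was tested on simulated data. SE is the size of the log2 fold change divided by the square root of F, and 95% intervals use the same fit. Libraries of a group differed from each other by more than sampling noise (chi-square over its degrees of freedom 6.21 to 17.2). The first principal component held 83.3% of the variance. Alternatives were other scalings and filters, DESeq2 1.42.0, limma-voom (limma 3.58.1), a replicate block, and each library left out; summing the reads of processed copies with their parent genes was added after seeing the data.

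Every initiation factor gene is named; values of each library are given for up to 3 higher and 3 lower called genes with the largest change in each group, and up to 3 genes a direction are named from each list by adjusted p. Further genes are named beside their relatives in the eIF2 list and within the marker lists. ALKBH5 is named as the check of the labels. The genes and lists were chosen with earlier results of these data known. Promoter windows came from RefSeq (GRCh38.p14) for 43 of 52 genes, matched by symbol; gene positions came from GENCODE 29, and no hg19 coordinates were used.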

Additional observations from a re-analysis of the deposited data

How the results depend on the processing

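Of the 27 initiation factor genes called, 23 kept their call and direction under every setting run; the exceptions were EIF3D, EIF3L, EIF4E3 and EIF5AL1. Relative log expression scaling, a filter at 1 CPM, DESeq2 and limma-voom changed no call among the 46 genes. Library totals as the scaling gave 0 EIF3 genes higher and 7 lower, 6 EIF4 genes lower, and 2 genes lower beyond 1.5-fold, EIF1AX joining EIF4A3; the all-gene median moved at the same time. Genes that were never called changed sign: EIF2A (-0.045), EIF3F (-0.00018) and EIF3H (-0.065) with library totals, and EIF3H (-0.0044) with no filter. Leaving out 1 library gave 9 to 10 genes higher and 14 to 16 lower, 0 to 1 EIF3 genes higher and 3 to 4 lower, 2 to 4 genes higher and 1 to 2 lower beyond 1.5-fold. The calls over all tested genes fell as well, to 3899 to 4391 higher and 3979 to 4325 lower, beside 4471 and 4466 with every library. With only 2 libraries left in a group the spread comes from both groups together. Over these fits the log2 fold change of uncalled genes crossed 0: EIF2A -0.032 to 0.054, EIF2S2 -0.021 to 0.15, EIF3H -0.034 to 0.038, EIF3J -0.16 to 0.029, EIF3K -0.074 to 0.013, EIF3IP1 -0.13 to 0.070 and EIF4E -0.10 to 0.041. The cause of these changes was not tested.

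The labels do not say whether same-numbered libraries belong together, and the main fit uses no pairing. Deviations of same-numbered libraries correlated at 0.331, 0.0578 and 0.351, those of differently numbered libraries at -0.367 to 0.0768. Scrambled library 2 correlated slightly better with knockdown library 1 (0.0768) than with knockdown library 2. Whether libraries of a number share a batch was not tested. With the replicate block 11 initiation factor genes were higher and 18 lower, EIF3G and EIF4G1 being added, and 2 were lower beyond 1.5-fold, with EIF1AX added. Over all tested genes the block gave 4865 higher and 4895 lower, beside 4471 and 4466 without it. EIF1AX, with 45 to 142 reads a library, is the tested gene most limited by depth.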
